A study of Rattus norvegicus with 19 samples.

Results

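The protein tyrosine phosphatase genes of the rat were taken by their symbols, Ptpn followed by a number for the non-receptor enzymes and Ptpr followed by a letter or number for the receptor-type enzymes. Of 41 such symbols in the reference gene table, 34 were matched by 44 probes, out of 15168 gene symbols with a probe on the array. Ptprcap falls under the symbol rule but encodes a protein that associates with the phosphatase CD45 and is no phosphatase itself. The family was put forward by the level of Ptpn13 in carcinomas relative to normal glands. That contrast was therefore selected on Ptpn13, and its values are given as a description with no test. The other members were taken by symbol alone.

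Expression was measured in 13 mammary carcinomas and 6 normal mammary glands of female rats, each an F1 cross between Sprague-Dawley and Copenhagen animals, by hybridising every sample to its own Agilent single-colour array. Radiation induced the carcinomas, according to the labels. Animals either received 4 Gy of whole-body gamma rays from 137Cs at 0.5 Gy/min when 7 weeks old or were not irradiated. The labels do not tell which normal glands came from irradiated animals, nor the age at sampling, so the comparison is of tumour with whole gland and not of irradiation. Nothing in the labels says whether 2 samples came from 1 animal, and p-values measure the spread between these samples.

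Protein tyrosine phosphatases remove phosphate from tyrosine residues and so oppose the tyrosine kinases through which growth factor, cytokine and integrin receptors signal. Receptor-type members span the membrane and many carry adhesion-like outer domains, while non-receptor members are directed to their substrates by domains such as FERM, PDZ or SH2. In the mammary gland different members belong to different cells, with the LAR phosphatase typical of epithelium and CD45 typical of leukocytes.

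Levels are log2 spot intensities relative to the 75th percentile of the same array, so that a negative level is dimmer than that percentile. Levels of different probes cannot be set against each other. The 75th percentile itself lay between 484.9 and 1428 intensity units in carcinomas and between 295.5 and 673 in normal glands, and the spots well above background made up 62.3 to 84.2% in carcinomas and 65.5 to 77.2% in normal glands. Carcinoma 7 had the dimmest tumour array, and the mean level of its 10 basal epithelium markers was -2.29, against 0.69 to 2.11 in the other 12 carcinomas and 0.02 to 0.79 in the normal glands. Sample codes in the labels end in a number for 10 carcinomas and 5 normal glands and in a letter for carcinomas 11, 12 and 13 and normal gland 6. The labels do not say what the letters mean. As a check of the tissue labels, 12 of 12 measured adipocyte markers, 9 of 11 endothelial markers and 13 of 19 leukocyte markers were lower in carcinomas (limma, adjusted p under 0.05), and 6 of 18 luminal and 1 of 10 basal epithelium markers were higher. Of 7 fibroblast markers, 2 were lower. By the same rule 9.70% of all genes tested were higher and 13.2% lower, so the basal count is near its share. The fibroblast count is above its share but rests on 7 genes. The luminal list's mean level lay between 0.80 and 2.54 in carcinomas and between 0.79 and 1.68 in normal glands. Adipocyte marker levels lay between -3.79 and -2.30 in carcinomas and between 2.15 and 3.50 in normal glands. In such bulk tissue fewer cells of a type and less RNA per cell cannot be told apart.

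Ptpn13 encodes a large cytoplasmic phosphatase with a FERM domain and several PDZ domains, known for binding the death receptor Fas. Its brighter probe was well above background on every array. In carcinomas 1 to 13 the log2 levels were 0.90, 0.70, 1.20, 0.05, 0.94, 1.15, -1.55, 1.04, 1.03, 0.70, -0.85, -1.37 and -0.55, and in normal glands 1 to 6 they were -1.70, -3.0, -2.98, -2.17, -2.17 and -1.56. All 13 carcinomas lay above all 6 normal glands, a separation that 0.539% of the 12803 genes tested had in this direction. The lowest carcinoma, carcinoma 7, exceeded the highest normal gland, normal gland 6, by only 0.01. The mean was 0.26 ± 1.00 in carcinomas and -2.26 ± 0.61 in normal glands (SD, n = 13 and 6), a difference of 2.52 log2 units or 5.75-fold, which ranked 30th among the positive differences of all genes tested.

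The carcinomas were not alike in Ptpn13. Of the 13, 9 had levels of 0.05 or higher, and the other 4, carcinomas 7, 11, 12 and 13, had levels of -0.55 or lower, with a gap of 0.59 between the sets. Carcinomas 11, 12 and 13 are the letter-coded ones. The difference was 3.02 among number-coded samples (10 carcinomas and 5 normal glands) and 0.64 among letter-coded samples (3 carcinomas and 1 normal gland). Within the 3 array slides it was 3.50, 2.34 and 1.36. The slide with the smallest difference held all of the letter-coded samples, and normal gland 6 was its only gland. Carcinomas 8 and 10, the number-coded ones on that slide, had levels of 1.04 and 0.70.

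The dimmer Ptpn13 probe was well above background on 11 carcinoma arrays and 1 normal gland array. Its log2 levels in carcinomas 1 to 13 were -3.52, -3.92, -3.40, -3.43, -3.64, -2.92, -4.18, -3.47, -3.07, -3.90, -5.41, -6.51 and -6.33, and in normal glands 1 to 6 they were -5.13, -6.81, -6.53, -6.38, -5.59 and -6.51. 10 of the 13 carcinomas lay above all normal glands, and the 3 letter-coded carcinomas lay within the normal range. Since 5 of 6 normal glands and carcinomas 12 and 13 were not well above background, no size of difference is given for this probe. Carcinoma 7 was therefore at the normal gland's upper end by the brighter probe and, at -4.18, above every normal gland by the dimmer one. Across the 13 carcinomas the probes correlated with r = 0.77, given as a description since both read the same RNA and 2 of the values were not well above background.

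**Figure D1:**
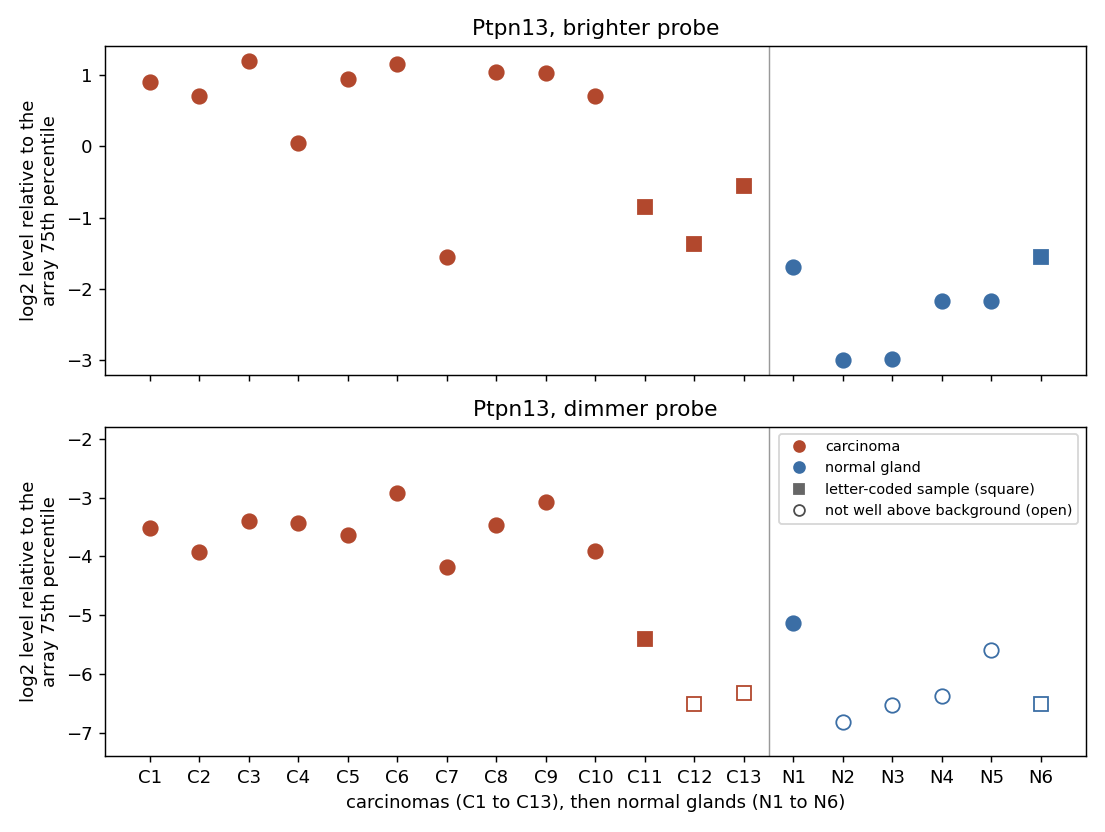
Log2 level of Ptpn13 by its brighter probe (top) and dimmer probe (bottom) in each of 13 carcinomas (red) and 6 normal glands (blue). Squares are letter-coded samples, and open symbols are arrays where the probe was not well above background. By the brighter probe carcinomas 7, 11, 12 and 13 sit at -0.55 or lower and the other 9 at 0.05 or higher.

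Ptpn13 followed the luminal and the basal marker lists over the 13 carcinomas with Pearson r = 0.30 (Spearman rho 0.43) and r = 0.55 (rho 0.20). Neither passed adjustment over the 5 relations tested here (2-sided permutation tests, adjusted p for r 0.336 and 0.0698, for rho 0.236 and 0.507). Without the 2 carcinomas whose basal marker level was farthest from the median, carcinomas 7 and 4, the basal r was 0.31. Leaving out 1 carcinoma at a time gave r of 0.08 to 0.63 for the luminal list and 0.15 to 0.63 for the basal list. The luminal r passed in 1 of these runs and the basal r in 3 (permutation tests, lowest adjusted p 0.0405 and 0.0307). Among the number-coded carcinomas the basal r was 0.76 and rho was -0.10. Ptpn13 correlated with the percentage of spots well above background at r = 0.59 and rho = 0.27, and with array brightness at r = 0.22 and rho = 0.13. The part of these array measures in the Ptpn13 level was not tested.

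Among 9126 genes well above background in all 13 carcinomas, those most like Ptpn13 over the carcinomas were Glg1 (Pearson r = 0.94), B3gnt2 (0.92), Tmed1 (0.91), Cd2bp2 (0.91) and Smarca4 (0.90). The most opposite were Cnpy2 (-0.95), Lig4 (-0.94) and Slmap (-0.93). The 4 carcinomas with low Ptpn13 carry much of these values. Over the 9 others alone, r was 0.74 for Glg1, 0.66 for B3gnt2, 0.43 for Tmed1, 0.65 for Cd2bp2, 0.45 for Smarca4, -0.70 for Cnpy2, -0.32 for Lig4 and -0.36 for Slmap. Of all genes compared, 13.9% had r above 0.5 and 14.9% had r below -0.5.

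Within the family the same carcinomas were the 4 highest or the 4 lowest of the 13 in 3 further genes, chosen after their values were seen. How many of all genes rank these carcinomas so was not counted. Ptpre, a phosphatase with a short outer part, had levels of 0.47, 0.39, 0.66 and 0.27 in carcinomas 7, 11, 12 and 13 and between -1.55 and -0.33 in the other 9, against 0.20 to 0.90 in normal glands. Those 4 carcinomas were thus within the normal range and the other 9 below every normal gland. Ptprg, a receptor with a carbonic anhydrase-like outer domain, had levels of -3.52, -3.12, -3.65 and -3.66 in carcinomas 7, 11, 12 and 13, the 4 lowest of the 13, and between -2.94 and -1.53 in the others, against -4.28 to -3.07 in normal glands. Ptpn9, a phosphatase with a lipid-binding Sec14-like domain, had levels of -4.06, -4.03, -3.78 and -3.63 in carcinomas 7, 11, 12 and 13, again the 4 lowest, and between -3.50 and -2.73 in the others, against -4.54 to -3.21 in normal glands. Over the 13 carcinomas r with Ptpn13 was -0.88 for Ptpre, 0.77 for Ptprg and 0.82 for Ptpn9, the lowest and the 2 highest values among 28 members compared. Of all genes compared, 13.9% had r above 0.5 and 14.9% below -0.5. The share of all genes with r as far from 0 as in these 3 genes was not counted. Among the 10 number-coded carcinomas, r was -0.77 for Ptpre, 0.63 for Ptprg and 0.75 for Ptpn9. These are descriptions over tumours that share the array type, the scaling and, for 3 of them, the letter code.

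**Figure D2:**
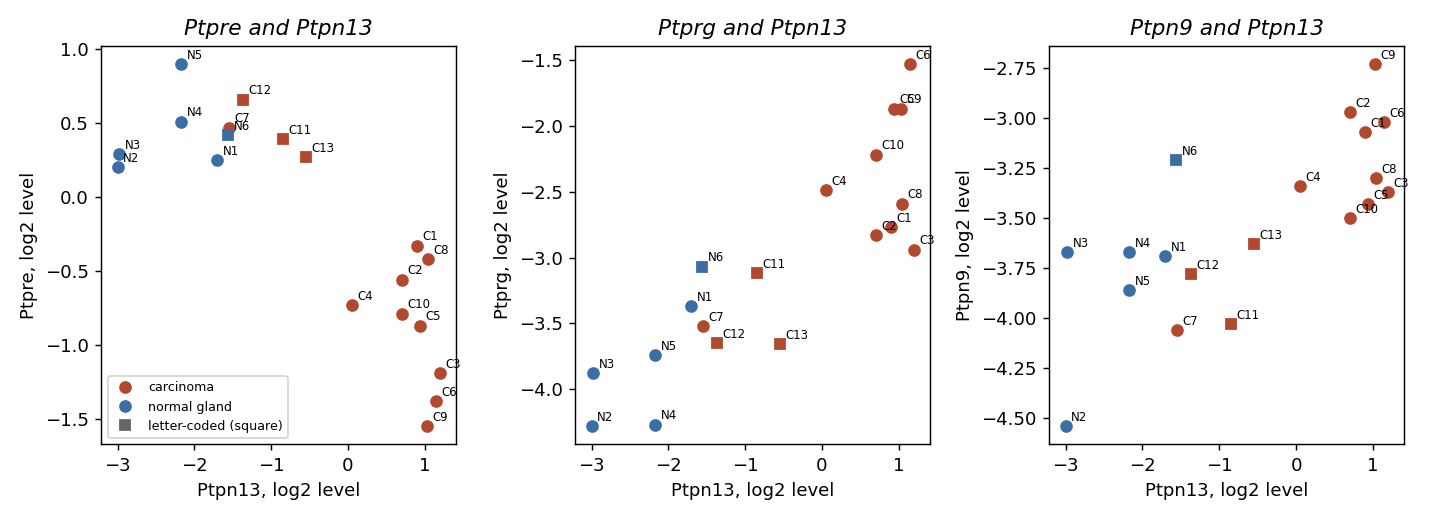
Log2 level of Ptpre, Ptprg and Ptpn9 (vertical axes) against that of Ptpn13 (horizontal axis) in 13 carcinomas (red) and 6 normal glands (blue), with letter-coded samples as squares. Carcinomas 7, 11, 12 and 13 lie within the vertical range of the normal glands in all 3 panels, at Ptpre levels of 0.27 to 0.66.

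Of the genes next to Ptpn13 in the reference gene table, 3 had a probe past the filter and none of them was higher. Slc10a6, a steroid sulphate transporter, fell by 1.57 ± 0.33 log2 units in carcinomas (SE, limma adjusted p = 0.00244), at -4.12 ± 0.61 in carcinomas and -2.55 ± 0.82 in normal glands (SD, n = 13 and 6). Aff1 differed by 0.76 ± 0.39 (adjusted p = 0.165) and the kinase gene Mapk10 by 0.19 ± 0.48 (adjusted p = 0.821). These 2 genes were well above background on only 2 and 3 of 6 normal gland arrays, so neither difference is a firm measure of size. C14h4orf36 was not well above background on any array, and the remaining neighbours had no matched probe. Of 11 reported Ptpn13 partners and substrates measured, 2 were higher and 2 lower, where 9.70% and 13.2% of all genes tested were. Nfkbia, the NF-kappa-B inhibitor, fell by 1.49 ± 0.31 (adjusted p = 0.00227) and Fas fell by 0.77 ± 0.23 (0.0203). The kinase genes Src and Erbb2 rose by 1.00 ± 0.35 (0.0430) and 0.64 ± 0.21 (0.0313).

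Of the 34 genes with a probe, 33 passed the filter on dim probes. Ptpn20 did not, since its probe was well above background on no array. Apart from Ptpn13, 5 of 32 members were higher in carcinomas and 5 were lower at an adjusted p under 0.05 (limma, adjusted over all 12803 genes), and 22 did not pass. The same rule called 9.70% of all genes tested higher and 13.2% lower, 22.9% in either direction, against 15.6% and 15.6% of the members. The higher ones include Ptprn, which was well above background on 1 of 6 normal gland arrays and passed the filter through the carcinomas. Without it, 4 of 31 members were higher, or 12.9%. The median difference was 0.07 over these members and 0.01 over all genes, and 17 of the 32 differences were positive. No member other than Ptpn13 had all carcinomas above all normal glands, and 1 had all of them below, a separation seen in 1.93% of all genes. The median SD among carcinomas was 0.62 for the 33 members and 0.60 for all genes.

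These counts changed with single arrays and with array brightness, and so did the calls over all genes. Leaving out normal gland 2 gave 2 members higher and 3 lower, with 5.42% and 8.74% of all genes. Leaving out normal gland 3 gave 3 and 4, with 5.19% and 8.49% of all genes. Without normal gland 4, 5 or 6, or carcinoma 5, the lower count was 3, with 11.9%, 12.3%, 13.4% and 12.2% of all genes lower. Carcinoma arrays were mostly the brighter ones, and with array brightness as a covariate 0 members were higher and 1 was lower (limma, 3 members at an unadjusted p under 0.05), with 0.0859% of all genes higher and 1.34% lower.

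**Figure D3:**
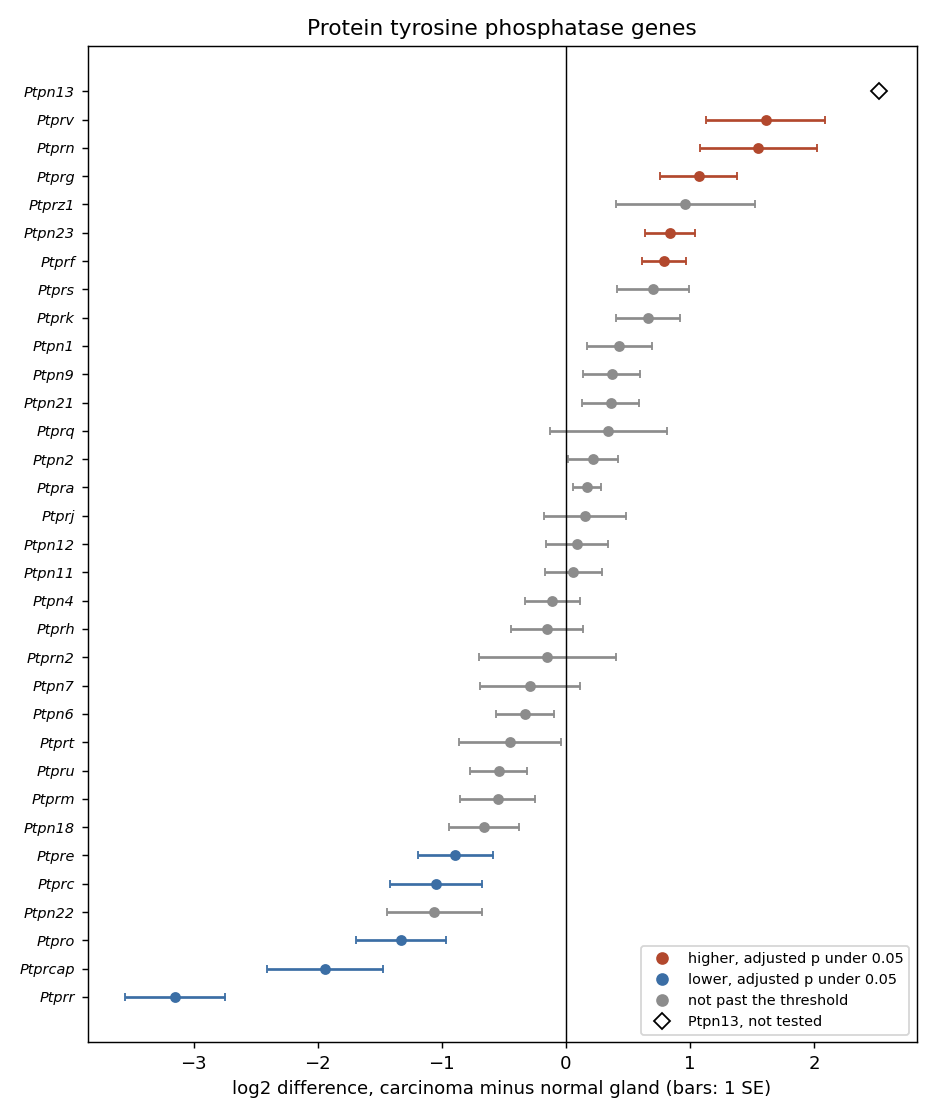
Log2 difference, carcinoma minus normal gland, of 33 phosphatase genes past the filter, with bars of 1 SE from the limma fit. Red and blue mark genes past the threshold, grey those that were not, and the open diamond is Ptpn13 at 2.52, which was not tested. The tested differences run from -3.15 for Ptprr to 1.61 for Ptprv.

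Ptprr, a phosphatase with a kinase interaction motif that acts on MAP kinases and is best known from neurons, had the largest tested difference of the family. Its levels in carcinomas 1 to 13 were -4.13, -5.65, -4.48, -2.94, -5.55, -5.57, -4.64, -4.91, -5.41, -5.03, -4.70, -3.68 and -5.13, and in normal glands 1 to 6 they were -1.75, -1.32, -2.12, -2.57, -1.96 and 0.10. Every carcinoma was below every normal gland. The gene was lower in carcinomas by 8.87-fold, a log2 difference of -3.15 ± 0.40 (SE, limma adjusted p = 1.63e-05). Signal well above background was read in 11 of 13 carcinomas and in all 6 normal glands. The call held in each of the 19 fits without 1 array and with array brightness as a covariate. Within the 3 slides the difference was -3.22, -2.38 and -4.79. Within slide 2 it did not pass (limma adjusted p = 0.128), and slide 3 held only 1 normal gland. With another background correction, normexp, the difference was smaller, at -2.16, where the median of all genes was -0.37. A dimmer Ptprr probe was well above background on 4 carcinoma arrays and no normal gland array and did not pass the filter.

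The other measured phosphatase with that motif, Ptpn7 of leukocytes, did not pass (-0.29 ± 0.40, adjusted p = 0.650). Of the dual-specificity and other tyrosine phosphatases outside the family, 2 of 33 were higher and 5 lower, close to the 22.9% of all genes called in either direction. Dusp26, found in neural tissue, fell by 3.58 ± 0.64 (limma adjusted p = 0.000686) and Dusp2, of activated immune cells, fell by 1.30 ± 0.40 (0.0236), while Dusp5 rose by 0.87 ± 0.31 (0.0478) and Ssh3, a cofilin phosphatase, by 0.59 ± 0.16 (0.0144). 4 of 6 Schwann cell markers were also lower, where 13.2% of all genes tested were, led by Mbp at -3.74 ± 0.44 (limma adjusted p = 7.26e-06). The mean level of the 6 markers lay between -2.67 and -1.25 in carcinomas and between -0.54 and 0.66 in normal glands. The part of nerve in the Ptprr difference was not tested.

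Promoters of 28 of the 34 genes were found in the RefSeq promoter table for GRCr8, each reaching from 250 bases before the annotated start to 50 after it. Those of Ptprg and Ptprr are shown because these genes went opposite ways and their promoters differ in CpG content. Both are printed 5′ to 3′ on the gene's strand, with CpG dinucleotides in capitals. Ptprg lies on the minus strand at chr15:15982532-15982831, and Ptprr on the plus strand at chr7:53685989-53686288.
Ptprg: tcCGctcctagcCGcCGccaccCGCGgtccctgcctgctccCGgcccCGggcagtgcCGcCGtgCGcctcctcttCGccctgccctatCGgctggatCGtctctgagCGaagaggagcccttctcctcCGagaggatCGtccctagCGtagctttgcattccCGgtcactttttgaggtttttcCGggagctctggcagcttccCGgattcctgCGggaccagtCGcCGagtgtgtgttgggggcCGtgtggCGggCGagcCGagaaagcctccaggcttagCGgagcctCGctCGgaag
Ptprr: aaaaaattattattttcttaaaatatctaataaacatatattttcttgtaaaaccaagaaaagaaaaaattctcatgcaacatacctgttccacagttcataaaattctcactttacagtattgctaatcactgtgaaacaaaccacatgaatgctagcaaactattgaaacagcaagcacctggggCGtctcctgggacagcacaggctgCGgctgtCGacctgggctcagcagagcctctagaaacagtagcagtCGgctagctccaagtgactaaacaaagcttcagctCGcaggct
The Ptprg window held 30 CpG dinucleotides, which 10.3% of all 33469 promoters reach, and the Ptprr window held 5, which 62.0% reach. CpG counts spanned a wide range in both directions. Among lower members there were 24 in Ptpro, 23 in Ptpre, 6 in Ptprc and 5 in Ptprr, and among higher ones 30 in Ptprg, 25 in Ptpn23, 19 in Ptprn, 4 in Ptprf and 1 in Ptprv. The GC box GGGCGG, searched on both strands, was in 18 of the 28 promoters, in 2 of 5 of higher members and in 2 of 4 of lower members, against 33.1% of all promoters. The letters TATAAA were in 0 of the 28 promoters on either strand, against 14.2% of all.

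Apart from Ptpn13, 5 members were higher in carcinomas, and in each the groups overlapped. Ptprf, the LAR phosphatase of epithelial cell adhesion, had log2 levels of 5.02 to 6.02 in carcinomas (median 5.64) and of 5.43, 4.30, 4.26, 5.11, 4.93 and 5.10 in normal glands 1 to 6. 9 of 13 carcinomas were above all normal glands. The difference was 0.79 ± 0.18 (SE, limma adjusted p = 0.00476), or 1.73-fold. With array brightness as a covariate the Ptprf difference was 0.82 ± 0.33 and did not pass (limma adjusted p = 0.248). Nor did it pass over the 12 arrays whose sample numbers both groups share (0.69, limma without a block, adjusted p = 0.0627). Ptprs, its relative, did not pass (0.70 ± 0.29, adjusted p = 0.0877). Over the carcinomas Ptprf did not follow the luminal markers (r = -0.36, rho = -0.34, permutation tests, adjusted p 0.283 and 0.327).

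Ptpn23, a non-receptor member of endosomal sorting, had levels of -0.54 to 0.21 in carcinomas (median -0.07) and of -0.18, -1.71, -1.59, -0.82, -0.54 and -0.77 in normal glands 1 to 6. Normal gland 1 was within the carcinoma range, and 9 of 13 carcinomas were above all glands. The difference was 0.84 ± 0.20 (limma adjusted p = 0.00478), with the carcinomas at -0.09 ± 0.23 and the normal glands at -0.94 ± 0.60 (SD, n = 13 and 6). Within the 3 slides it was 1.26, 0.44 and 0.64, and with array brightness as a covariate it was 0.27 (adjusted p = 0.691).

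Ptprg was higher by 1.07 ± 0.31 (limma adjusted p = 0.0183). Its normal glands 1 to 6 were at -3.37, -4.28, -3.88, -4.27, -3.74 and -3.07, and 9 of 13 carcinomas exceeded all of them. The 4 that did not were carcinomas 7, 11, 12 and 13. The difference was 1.25, 1.65 and 0.02 within the 3 slides, and without normal gland 2 it was 0.97 (adjusted p = 0.0571). With array brightness as a covariate it was 1.04 ± 0.55 (limma adjusted p = 0.394). With another background correction, normexp, it was 0.15 (adjusted p = 0.561), where the median of all genes was -0.37. Ptprz1, the other receptor with a carbonic anhydrase-like domain and known from glia, varied from -4.34 to 1.47 in carcinomas and from -3.57 to -1.63 in normal glands and did not pass (0.96 ± 0.56, adjusted p = 0.231).

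Ptprv, known in rodents as the osteotesticular phosphatase, had levels of -2.77 to 1.17 in carcinomas (median -1.32) and of -3.42, -2.91, -3.25, -2.13, -2.38 and -1.95 in normal glands 1 to 6. 11 of 13 carcinomas were above all normal glands, and carcinomas 2 and 13 were highest, both at 1.17. The difference was 1.61 ± 0.48 (limma adjusted p = 0.0201). Without normal gland 2 or 3 the adjusted p was 0.0508 and 0.0594, the difference within the 3 slides was 2.63, 0.13 and 1.33, and with array brightness as a covariate it was 0.42 (adjusted p = 0.819).

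Ptprn, a catalytically inactive member of secretory vesicles in neuroendocrine cells, had levels of -6.15 to -2.47 in carcinomas (median -4.37) and of -4.70, -6.87, -6.14, -5.22, -5.79 and -6.37 in normal glands 1 to 6. The probe gave signal well above background in all 13 carcinomas and in only 1 normal gland, so it passed the filter through the group where it was high. The fitted difference was 1.55 ± 0.47 (limma adjusted p = 0.0219), which is no measured size, since 5 of 6 normal gland readings were not well above background. With the normexp background correction, where the median of all genes was -0.37, the difference was -0.27. Without normal gland 2 or 3 the adjusted p was 0.0732 and 0.0566, and within the 3 slides the difference was 2.20, 0.72 and 1.98. Its relative Ptprn2 did not pass (-0.15 ± 0.55, adjusted p = 0.879).

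**Figure D4:**
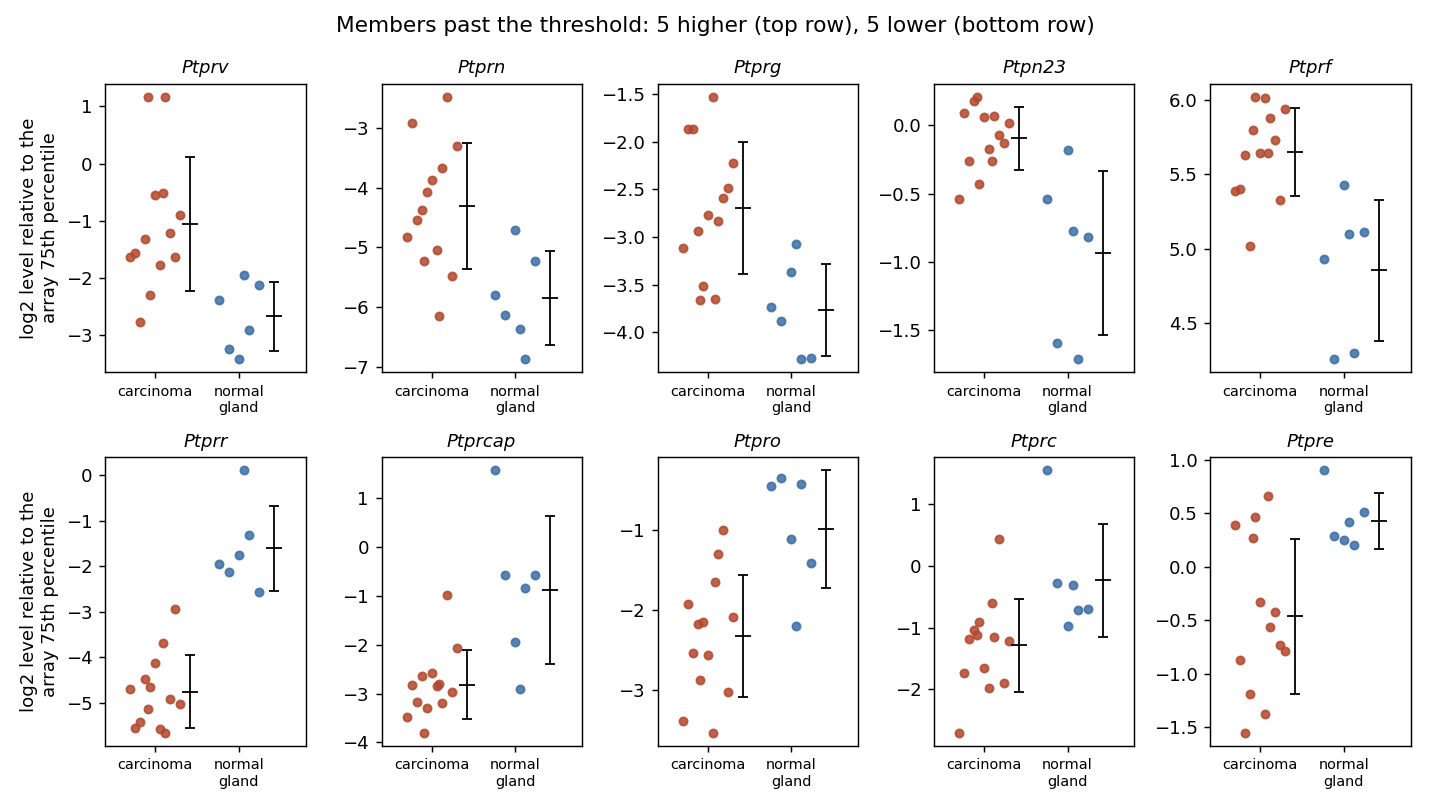
Log2 level of the 10 members past the threshold in 13 carcinomas (red, left in each panel) and 6 normal glands (blue, right), with 5 higher genes in the top row and 5 lower genes in the bottom row. Points are samples and black bars are the mean with 1 SD. Only in the Ptprr panel do the groups not overlap, with carcinomas from -5.65 to -2.94 and normal glands from -2.57 to 0.10.

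Beside Ptprr, 4 members were lower in carcinomas, namely Ptprcap, Ptprc, Ptpro and Ptpre, and the groups overlapped in each. Ptprcap, the CD45-associated protein of lymphocytes, had levels of -3.80 to -0.99 in carcinomas (median -2.85) and of -1.95, -0.84, -0.57, -0.58, 1.56 and -2.91 in normal glands 1 to 6. The difference was -1.94 ± 0.47 (SE, limma adjusted p = 0.0061). 6 of 13 carcinomas were below all normal glands, and normal glands 1 and 6 lay within the carcinoma range. Within slides 1 and 2 the difference was -1.69 and -3.56, and within slide 3, where normal gland 6 was the only gland, it was 0.29.

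Ptprc encodes CD45, the receptor phosphatase of all nucleated blood cells. Its levels were -2.70 to 0.43 in carcinomas (median -1.19) and -0.97, -0.71, -0.28, -0.70, 1.54 and -0.31 in normal glands 1 to 6. Normal gland 5 was the highest of all samples and carcinoma 8 the highest carcinoma. The difference was -1.05 ± 0.37 (limma adjusted p = 0.0475), the call closest to the threshold. It did not pass in 15 of the 19 fits without 1 array, where the adjusted p ran up to 0.155 (without normal gland 5, a difference of -0.69), and passed only without normal gland 1 or carcinoma 7, 8 or 12. Within the 3 slides the difference was -0.74, -1.91 and -0.73, and with array brightness as a covariate it was -0.42 (adjusted p = 0.77). A second Ptprc probe differed by -0.66 ± 0.42 (limma over all probes, adjusted p = 0.287).

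Ptpro, a receptor of podocytes and of some leukocytes, had levels of -3.53 to -1.0 in carcinomas (median -2.17) and of -1.11, -0.43, -0.35, -1.42, -0.45 and -2.20 in normal glands 1 to 6. The difference was -1.33 ± 0.36 (limma adjusted p = 0.0113), and a second probe gave -1.25 ± 0.38 (adjusted p = 0.024 over all probes). Within the 3 slides it was -1.36, -1.88 and 0.00. Ptpre differed by -0.89 ± 0.30 (adjusted p = 0.035), with 9 of 13 carcinomas below all normal glands. Within the 3 slides it was -0.98, -1.50 and -0.40. Its call was lost without normal gland 2, 3, 4, 5 or 6 or carcinoma 5 (adjusted p between 0.0506 and 0.082). With array brightness as a covariate the Ptpre difference was -0.88 ± 0.52 (limma adjusted p = 0.445).

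Ptpn22, the lymphoid phosphatase, differed by -1.06 ± 0.38 and did not pass (limma adjusted p = 0.0522). Ptpn6, known as SHP-1 of blood cells, differed by -0.33 ± 0.23 (0.316), and the widely expressed Ptpn11, SHP-2, by 0.06 ± 0.23 (0.884).

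Of the members, only Ptprc and Ptpn6 were tested against the leukocyte markers. The markers' mean level over 19 genes lay between -2.95 and -0.72 in carcinomas (median -1.93) and between -1.06 and 0.84 in normal glands (median -0.39). Carcinoma 8 was the highest tumour and normal gland 5 the highest gland, as for Ptprc, and no marker of the list was at background throughout either group. Over the 13 carcinomas Ptprc followed the leukocyte level with r = 0.91 and rho = 0.79 (2-sided permutation tests, adjusted over 5 relations p = 0.00045 and 0.0101). Without the 2 farthest carcinomas, 8 and 11, r was 0.72 (permutation p = 0.0154). Among the 10 number-coded carcinomas r was 0.91 (permutation test, adjusted p = 0.00785), while rho was 0.72 and did not pass (adjusted p = 0.116). Without carcinomas 8 and 5 of these r was 0.68. Ptpn6 had r = 0.84 (adjusted p = 0.00222) and rho = 0.56 (adjusted p = 0.124), and without carcinomas 8 and 11 r was 0.43 (permutation p = 0.191). Among the 10 number-coded carcinomas its r was 0.80 (adjusted p = 0.0366) and its rho 0.45 (adjusted p = 0.319), and without carcinomas 8 and 5 of these r was 0.67. Each slide held 4 or 5 carcinomas, too few for a correlation within it. The part of leukocyte number in the tumour against gland differences was not tested.

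**Figure D5:**
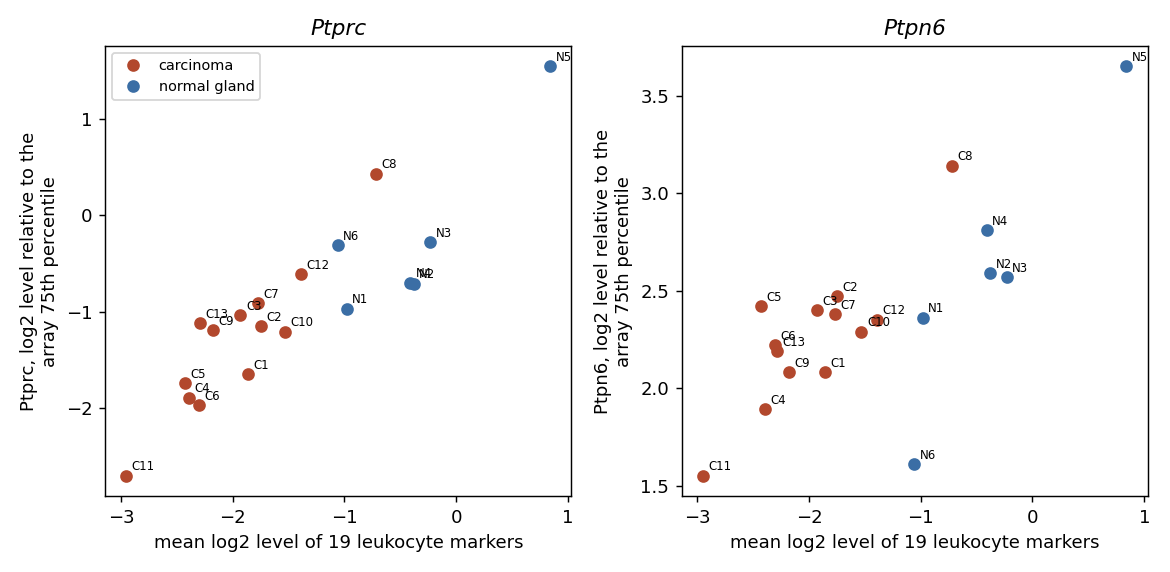
Log2 level of Ptprc (left) and Ptpn6 (right) against the mean log2 level of 19 leukocyte markers in 13 carcinomas (red) and 6 normal glands (blue). Over the carcinomas r was 0.91 for Ptprc and 0.84 for Ptpn6. Carcinomas 8 and 11 have the highest and the lowest leukocyte marker level of the carcinomas.

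The remaining members did not pass. Ptpn1, known as PTP1B and an opponent of insulin receptor signalling, differed by 0.43 ± 0.26 (limma adjusted p = 0.262), and Ptpn2 by 0.22 ± 0.20 (0.456). Ptpra, a receptor with a short outer part that acts on Src family kinases, varied little, at 2.08 ± 0.19 in carcinomas and 1.92 ± 0.06 in normal glands (SD, n = 13 and 6). Among the 4 measured receptors with a MAM adhesion domain, Ptprk differed by 0.66 ± 0.26 (0.0723) and Ptpru by -0.54 ± 0.23 (0.102), with Ptprm and Ptprt at -0.55 and -0.45. The PEST group members Ptpn12 and Ptpn18 were at 0.09 ± 0.25 (0.844) and -0.66 ± 0.28 (0.0908), and the FERM domain members other than Ptpn13, Ptpn4 and Ptpn21, at -0.11 ± 0.22 (0.773) and 0.36 ± 0.23 (0.265). Ptpn9 was at 0.37 ± 0.23 (0.255), and Ptprh, Ptprj and Ptprq lay between -0.15 and 0.34. Ptprh, Ptprq and Ptprt were well above background on only 1 or 2 normal gland arrays. Ptpn3, Ptpn5, Ptpn14, Ptprb, Ptprd, Ptpn12-ps1 and Ptprdl had no matched probe and were not analysed here.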

How the data were processed

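RNA of 13 mammary carcinomas and 6 normal mammary glands was hybridised to 1 single-colour (Cy3) Agilent array each. The submitters' processing notes name Agilent Feature Extraction 10.7.3.1 as the image software. The deposited spot intensity, per the file headers, is background-subtracted, and the files also give the spot's and background's median intensity and flags. The authors also deposited a table of log2 values, which equals the scanner values plus 1 constant per array (0.43 to 0.54, no probe departing by more than 0.001), so only its centring is unstated.

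Uneven or outlying spots (403 to 1069 per array) were set missing, and saturation occurred in no spot. Each array's log2 intensities were expressed relative to their 75th percentile, and the mean over a probe's spots was taken, giving 30367 probes. Probes were named by unversioned RefSeq accession in a GRCr8 gene table (18005 matched). The array annotation rests on another assembly, so no probe position is given. A probe was kept if at least 0.5 of its spots were well above background on at least 6 arrays, and the brightest kept probe stood for its gene. Carcinomas and normal glands were compared with limma 3.58.1 under R 4.3.3 (intensity trend, 2-sided, Benjamini-Hochberg over 12803 genes, threshold 0.05), and the procedure was tested on simulated data with 200 changed genes. Correlations used 100000 permutations. Precision is limited by the number of arrays.

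The members, gene lists and marker lists were chosen with earlier results of these data known. Values were given for each Ptpn13 probe and each other member past the threshold, for members that are among the 2 brightest of their class or differ by over 1 log2 unit, and for the 2 largest changes per direction of other lists. Members outside that rule are named with values in the last paragraph to account for all of them, and the carcinomas and genes set beside Ptpn13 (Ptpre, Ptprg and Ptpn9) and the promoters shown were chosen after their values were seen. The files hold no mean spot signal, so normexp (offset 50) used the median signal. A membership alternative by the array's gene name and a relation of Ptprb with endothelium could not be run, since the files used give no gene names and Ptprb had no matched probe, which left 5 relations. For sample numbers shared by the groups, deviations from the group means correlated above 0.1 in 1 of 6 pairs (range -0.11 to 0.24). Tumour and gland of 1 animal need not correlate this way, so the check cannot decide on pairing. The main fit did not pair them. Other alternatives were quantile normalization, the authors' table, filters on dim probes, slide, scan day and sample code as blocks, and leaving out each array.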

Additional observations from a re-analysis of the deposited data

Results flagged for a closer look

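Of 33 members, 3 had a normal gland far from the other 5, where the gap to the nearest gland exceeded Dixon's critical share of the group's range for 6 samples. Chance sets apart about 1 in 20 groups, so a few are to be looked for in 33. Ptprc stood at 1.54 in normal gland 5, with the next gland at -0.28, and the leukocyte marker level of that gland was 0.84, also the highest. Ptpn12 stood at -0.30 in normal gland 6, the letter-coded gland, with the next at -1.33. Ptprz1 stood at -3.57 in normal gland 3, with the next at -2.30.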

How the results depend on the processing

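The counts of 5 members higher and 5 lower stayed within 1.5 times under quantile normalization, the authors' table, both other filters on dim probes, the mean of a gene's probes, no variance trend, slide, scan day or sample code as a block, and number-coded samples alone. With normexp 12 members were lower, and the median difference of all genes moved by -0.38 (929 higher and 5269 lower among all genes, 15% higher of those called, against 42.3% in the settings of the report). There Ptpn11 turned to -0.41, Ptprq to -0.75 and Ptprn to -0.27. Within slide 1 there was 1 member higher and 2 lower, within slide 2 there were 0 and 1, and within slide 3 there were 0 and 0 (limma; 11, 11 and 3 members at an unadjusted p under 0.05), in fits with fewer samples. Of all genes, 1.20% were higher and 4.16% lower within slide 1, 0.351% and 2.09% within slide 2, and 0% and 0.242% within slide 3. Within slide 3 Ptpn13 differed by 1.36 and Ptprcap by 0.29. Without carcinomas 4, 6 and 13, marked for evaluation by the scanner software, 3 were lower, and with array brightness as a covariate 0 were higher and 1 was lower, with Ptpn13 at 1.72. These last 2 were chosen after seeing the data, and the cause was not tested. Leaving out 1 array gave 2 to 6 higher, 3 to 7 lower and a Ptpn13 difference of 2.38 to 2.67. Over the 12 arrays whose sample numbers both groups share, a replicate block gave 5 higher, 6 lower and Ptpn13 at 3.09, against 4, 7 and 3.09 without the block. Signal over background limits Ptprn, Ptprh, Ptprq, Ptprt, the dimmer Ptpn13 probe and, in carcinomas 6 and 7, Ptprr.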
